A study of Gallus gallus with 24 samples.

Results

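Genes of the natriuretic peptide system and of the cardiac stress response were followed in the hearts of chickens that had eaten salinomycin (Sal), a carboxylic ionophore given in feed against coccidia. The members were chosen by symbol from a fixed list of 10: *NPPA*, *NPPB*, *NPPC*, *CORIN*, *NPR1*, *NPR3*, *ANKRD1*, *CSRP3*, *XIRP1* and *RCAN1*. Rows for 7 of them were present among the 15051 genes of the count table, of which 11779 carry a symbol. *NPPB*, *NPPC* and *NPR1* have no row under these symbols and were not analysed as separate genes. RefSeq draws *NPPC* over part of a long non-coding RNA row (ENSGALG00010018749) and *NPR1* over another row (ENSGALG00010005601). Neither row was taken as a member. RefSeq lists NPPB as a synonym of *NPPA* in chicken, and whether the *NPPA* row covers what *NPPB* is in mammals was not tested.

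All birds were female broiler chickens. Both groups were fed Sal-free diets in the weeks before exposure. The Sal-exposed group then ate feed with Sal at 10.5 mg/kg for 2 weeks until sampling in week 5, about 0.9 mg/kg body weight each day by the study's estimate, while the control group stayed on Sal-free feed. Heart and liver were collected from 6 birds per group, which gave 24 RNA-seq libraries of whole tissue. Which pen a bird came from and which chambers of the heart were taken are not given, and the labels do not tie a heart to the liver of the same bird.

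The natriuretic peptides of *NPPA* and *NPPB* are hormones that the heart muscle releases under wall stretch. They are cut from precursors by proteases, act through guanylyl cyclase receptors that raise cGMP, and are cleared by a receptor without cyclase activity. In mammals, the precursor genes are switched on in the stressed ventricle together with genes of stretch sensing at the Z-disc and of the calcineurin and NFAT pathway, and such transcripts serve as readouts of cardiac stress.

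Counts on genes lay between 32.2 and 44.5 M per library in the Sal-exposed hearts and between 33.1 and 42.3 M in the control hearts, and between 31.4 and 41.2 M in the livers. Mitochondrial transcripts took 40.7 to 79.6% of these counts in the Sal-exposed hearts and 38.6 to 47.9% in the control hearts (exact permutation test over birds, two-sided p = 0.0368), with Sal-exposed hearts 1 and 4 at 72.0% and 79.6%. Summed cardiomyocyte markers (all 12 listed) reached 32323 to 42670 CPM in the Sal-exposed hearts and 25509 to 33803 CPM in the control hearts (exact p = 0.00433), where CPM is the count scaled to a common library size after TMM correction. When CPM was taken over all counts without TMM, that log2 ratio turned to −0.12, as did the signs of *NPR3*, *ANKRD1* and *CSRP3* (−0.18, −0.40 and −0.09), under a scaling that put the median of all 13526 tested heart genes at −0.54 instead of −0.02. Fibroblast markers (all 10) summed to 1803 to 2722 CPM in Sal-exposed and 2499 to 3916 CPM in control hearts (exact p = 0.0130). Their part in the results below was not tested. In such bulk tissue, fewer cells of a type and less RNA per cell cannot be told apart. Of 12 atrial markers, 8 were in the table and summed to 127 to 237 CPM against 138 to 189 CPM (exact p = 0.353). *MYL7*, *MYH6*, *KCNA5* and *STARD10* were absent, and *GJA5* was the highest, with means of 91.2 and 94.7 CPM. The same markers summed to 47.6 to 85.1 CPM in control livers, so this sum does not settle the atrial share of a heart sample. Of 7 ventricular markers, 5 summed to 2213 to 6139 CPM against 2597 to 3680 CPM (exact p = 0.348). Exact p was 0.232 for endothelial and endocardial, 0.903 for smooth muscle, 0.890 for epicardial, 0.236 for skeletal muscle, 0.771 for erythrocyte and 0.511 for leukocyte and thrombocyte markers. Hepatocyte markers summed to 277 to 501 CPM in Sal-exposed and 231 to 710 CPM in control hearts (exact p = 0.400), most of it from reads of *APOA1*. Without *APOA1* they summed to 27.1 to 108 CPM and 9.07 to 14.8 CPM, a description because this split was chosen after its values were seen. *ALB* was the largest part of that sum, with means of 29.9 and 6.08 CPM. Of 12 hepatocyte marker genes tested 10 had a log2FC above 0 (47.8% of all genes), while *APOA1* (−0.41) and *CPS1* (−1.27) were below 0. *ALB* (albumin, 16.9 to 67.4 CPM against 4.56 to 8.22 CPM, log2FC 2.30, edgeR p-adj = 0.0292), *AHSG* (2.41, p-adj = 0.0370) and *APOH* (2.63, p-adj = 0.0468) rose, where 0.185% of all genes were called. The part of these liver transcripts in the heart values of the members was not tested.

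None of the 7 members passed the test between Sal-exposed and control hearts. By quasi-likelihood F tests in edgeR, with p-values adjusted after Benjamini and Hochberg (p-adj), 25 of 13526 genes tested (0.185%) had p-adj of at most 0.05, and 0.111% also had an absolute log2FC of at least 1. At an unadjusted p below 0.05, 0 of 7 members were called in edgeR against 17.2% of all genes, and 1 of 7 in DESeq2 against 18.4%, *NPPA*, whose DESeq2 p-adj was 0.259. The log2FC of the members ran from −0.38 to 0.51 with a median of 0.20, and 4 of 7 were above 0, while the median of all genes tested was −0.02 and 47.8% were above 0. No member separated the groups without overlap, as 2.57% of all genes did. The values of each bird are described below in CPM after TMM scaling, and levels are not compared between genes because no transcript lengths were at hand.

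**Figure D1:**
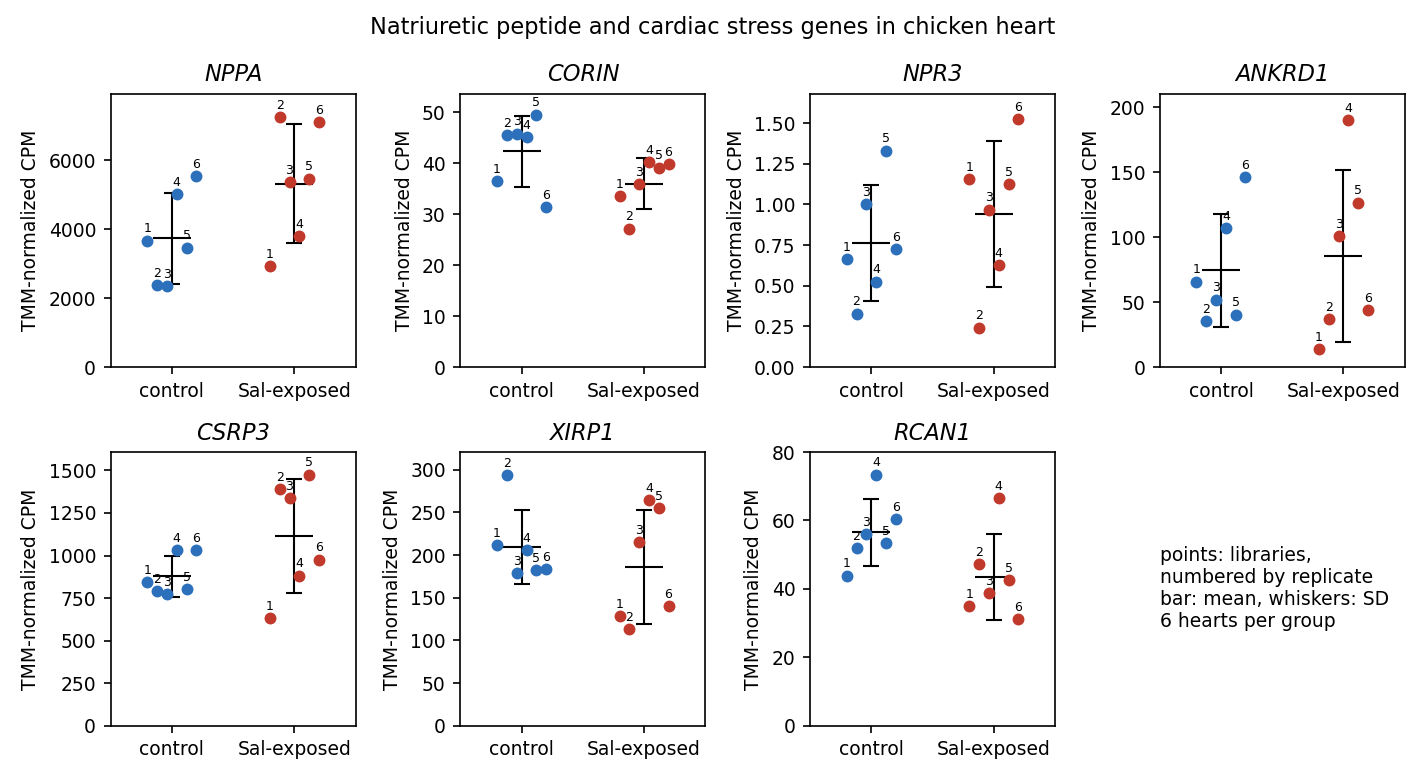
CPM after TMM scaling (linear axes from 0) of the 7 members in 6 control and 6 Sal-exposed hearts, 1 point per library with its replicate number, bars for the mean and whiskers for the SD. The groups overlap for every member, *NPPA* and *CSRP3* have their highest values in Sal-exposed hearts, and *RCAN1* is below all controls in 4 of 6 Sal-exposed hearts.

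*NPPA* (ENSGALG00010022146, protein-coding, GRCg7b chromosome 21, 5570001 to 5573063) encodes a natriuretic peptide precursor, for which RefSeq gives ANF, ANP and NPPB as synonyms. It made up 0.604 to 1.37% of the counts on nuclear genes in Sal-exposed hearts and 0.495 to 1.15% in control hearts, so sampling error from depth is small. Its level was 2939 CPM in the lowest, 5419 at the median and 7244 in the highest Sal-exposed heart, and 2349, 3570.2 and 5539 CPM in the control hearts. Sal-exposed hearts 2 and 6 stood above all controls, 5 of 6 were above the control median, and heart 1 was the lowest of its group. The means were 5323 ± 1726 and 3737 ± 1318 CPM (SD, n = 6 each). In edgeR, log2FC was 0.51 (SE 0.27, 95% interval −0.07 to 1.09) with p-adj = 0.348, and the exact permutation p of the CPM was 0.113. Without Sal-exposed hearts 1 and 4, the hearts richest in mitochondrial transcripts, log2FC was 0.75 (edgeR p-adj = 0.145). These were also the lowest hearts of their group for *NPPA*, at 2939 and 3804 CPM, so leaving them out raises this value by itself. The gene lies within the span of the row of *CLCN6*, a chloride-proton exchanger of endosomes, whose log2FC in the heart was −0.03. RefSeq also draws *RNP* inside that span and *CNP3*, with NPPC as a synonym, across its edge, and neither has a row of its own here. How the counting treated strand is not given, so reads of overlapping rows could not be separated by strand here.

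*CORIN* (ENSGALG00010013434, chromosome 4, 66154624 to 66276517) encodes the transmembrane protease that activates the atrial peptide precursor in mammals. The Sal-exposed hearts had 27.2, 37.5 and 40.2 CPM at the lowest, the median and the highest, and the control hearts 31.4, 45.3 and 49.5 CPM. Here 4 of 6 controls were above every Sal-exposed heart and control hearts 1 and 6 were within their range. Log2FC was −0.23 (SE 0.13, 95% interval −0.52 to 0.05, edgeR p-adj = 0.383), with an exact permutation p of 0.0931. Its replicate spread was low, with a biological coefficient of variation of 0.181 against a median of 0.248 over all heart genes. Over counts on nuclear genes alone, the log2 ratio was −0.34 (exact permutation p = 0.0390), a scaling under which the median of all tested genes lay at −0.13.

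*NPR3* (ENSGALG00010013669, chromosome Z, 10589895 to 10640719) encodes the clearance receptor, which takes up natriuretic peptides and lacks the cyclase domain. It was close to the limit of detection at 7 to 68 counts per Sal-exposed heart and 15 to 69 per control heart. Levels were 0.242, 1.05 and 1.52 CPM in Sal-exposed and 0.328, 0.695 and 1.33 CPM in control hearts. The lowest and the highest heart both belonged to the Sal-exposed group, so the control range lay inside theirs. Log2FC was 0.31 (SE 0.42, 95% interval −0.58 to 1.20, edgeR p-adj = 0.751), a range that holds changes of either sign. Spread between birds was wide, with a biological coefficient of variation of 0.479 at the 89.2th percentile of heart genes.

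*ANKRD1* (ENSGALG00010020507, chromosome 6, 20401373 to 20410128) encodes an ankyrin repeat protein that binds titin in the sarcomere and responds to stretch in mammalian heart. Its values spread more than those of any other member. They were 14, 72.3 and 189.7 CPM in Sal-exposed hearts, a 13.6-fold range, and 35.5, 58.9 and 146 CPM in control hearts, a 4.12-fold range. Sal-exposed heart 4 was the highest and heart 1 the lowest of all 12, and these are the same hearts with the most mitochondrial transcripts. Log2FC was 0.20 (SE 0.52, 95% interval −0.92 to 1.31, edgeR p-adj = 0.885), with a biological coefficient of variation of 0.611 at the 95.4th percentile of heart genes. The sign rested on 1 library, since without Sal-exposed heart 4 the value was −0.21.

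*CSRP3* (ENSGALG00010021030, chromosome 5, 1880055 to 1890051) encodes muscle LIM protein, a Z-disc protein whose loss causes cardiomyopathy in mammals. Levels were 633, 1156 and 1475 CPM in Sal-exposed hearts and 772, 823 and 1030.1 CPM in control hearts. Sal-exposed hearts 2, 3 and 5 were above all controls, whereas heart 1 was below all of them. The SD was 335 CPM in the Sal-exposed and 120 CPM in the control group, and the means were 1116 and 878 CPM. Log2FC was 0.35 (SE 0.19, 95% interval −0.07 to 0.76, edgeR p-adj = 0.376). Without Sal-exposed hearts 1 and 4 it was 0.56 (edgeR p-adj = 0.106). These were the lowest hearts of their group for *CSRP3*, at 633 and 882 CPM, so leaving them out raises this value by itself.

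*XIRP1* (ENSGALG00010026630, chromosome 2, 4966153 to 4981365) encodes Xin, an actin-binding protein of the intercalated disc. Sal-exposed hearts had 113, 178 and 264 CPM and control hearts 178, 195 and 294 CPM. Sal-exposed hearts 1, 2 and 6 were below all controls and the others were within the control range. Log2FC was −0.17 (SE 0.22, 95% interval −0.64 to 0.30, edgeR p-adj = 0.744). A protein-coding row without a symbol (ENSGALG00010026666, chromosome 2, 4961327 to 5004220) spans the same locus, and RefSeq draws its *XIRP1* across both, so the division of reads between the 2 rows is uncertain. That row had 7.92, 11.8 and 17.6 CPM in Sal-exposed and 15.8, 18.7 and 22.9 CPM in control hearts, with 4 Sal-exposed hearts below all controls. Its log2FC was −0.60 (edgeR p-adj = 0.145).

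*RCAN1* (ENSGALG00010012879, chromosome 1, 106003299 to 106045181) encodes a regulator that binds and inhibits calcineurin and, in mammals, is itself induced by calcineurin and NFAT. It had the lowest p of the members. The Sal-exposed hearts had 31.1, 40.6 and 66.6 CPM and the control hearts 43.9, 54.7 and 73.4 CPM. Sal-exposed hearts 1, 3, 5 and 6 were below all controls, and heart 4 was the highest of its group. Log2FC was −0.38 (SE 0.18, 95% interval −0.75 to 0.001, edgeR p-adj = 0.292), with an exact permutation p of 0.0801. It passed only when surrogate variables were added to DESeq2 (log2FC −0.48, p-adj = 0.0292), and p-adj ran from 0.0292 to 0.571 over its alternatives. Over nuclear counts the log2 ratio was −0.48 (exact permutation p = 0.0433), where the median of all tested genes lay at −0.13. Among the members, this p is given for *CORIN* and *RCAN1* only and was not adjusted over the members.

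**Figure D2:**
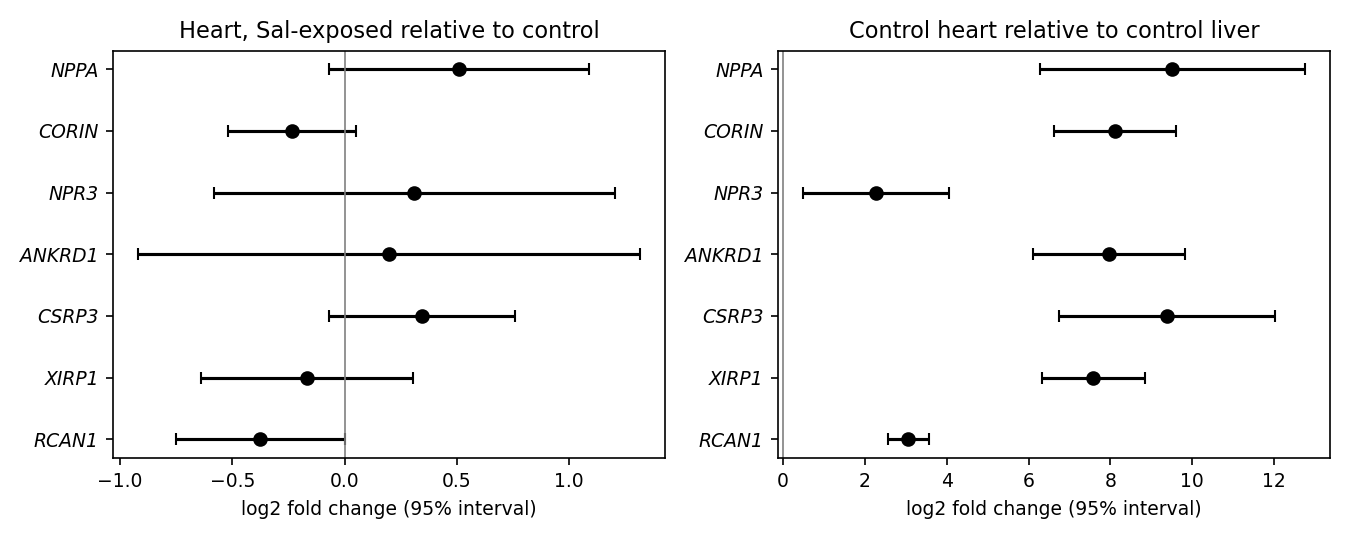
Log2FC with 95% intervals from edgeR for the 7 members, on the left Sal-exposed relative to control heart and on the right control heart relative to control liver (6 libraries per group, separate scales). On the left all 7 intervals include 0, that of *RCAN1* by 0.001, and on the right all 7 lie above 0. On the right, all members but *RCAN1* entered only through their heart counts and are a description.

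Among the 21 pairs of members over the 12 hearts, *NPPA* and *CSRP3* varied together. Spearman's rho was 0.867 (permutation p = 0.000390, adjusted over 21 pairs 0.00819) and Pearson's r was 0.787 (permutation p = 0.00276, adjusted 0.0580). The relation held inside each group, with r of 0.754 in the 6 Sal-exposed and 0.929 in the 6 control hearts, and r stayed at 0.791 without the 2 hearts farthest from the *NPPA* median. Both transcripts went down with a higher mitochondrial share inside each group, with r of −0.777 and −0.799 for *NPPA* and −0.811 and −0.613 for *CSRP3* in Sal-exposed and control hearts. Over all 12 hearts these relations were weak (r = −0.222 with permutation p = 0.492 and rho = −0.05 with p = 0.887 for *NPPA*, adjusted over 7 members 0.929 and 0.957, and r = −0.381 with p = 0.213 and rho = −0.26 with p = 0.419 for *CSRP3*, adjusted 0.929 and 0.853). Without the 2 hearts farthest from the median share, r was 0.126 for *NPPA* and 0.0909 for *CSRP3*. The part of the mitochondrial share in the joint variation was not tested. *ANKRD1* had r = 0.338 with *NPPA* and 0.511 with *CSRP3* over the 12 hearts (adjusted permutation p 0.544 and 0.274). In the 6 control hearts its r was 0.876 and 0.932, and in the 6 Sal-exposed hearts 0.150 and 0.4997, a difference between groups that was not tested.

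**Figure D3:**
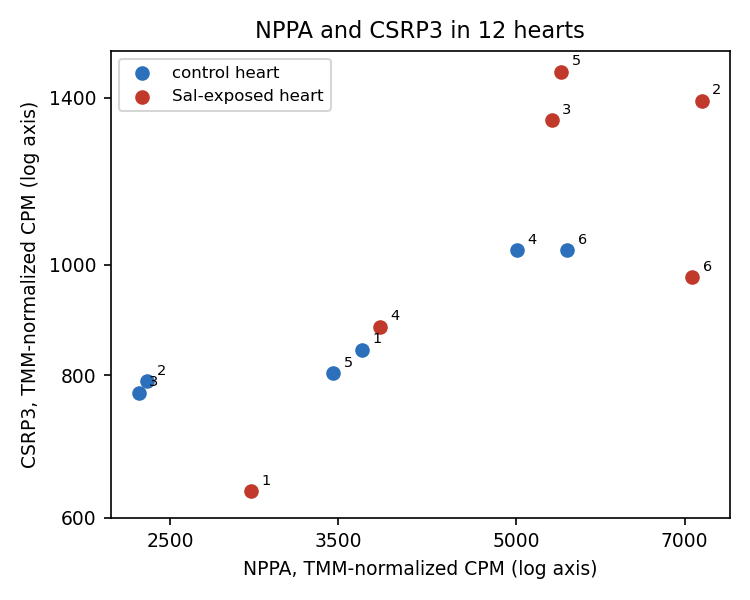
*NPPA* against *CSRP3* in CPM after TMM scaling on log axes, 1 point per heart labelled by replicate number, with 6 control and 6 Sal-exposed hearts. The points rise together (rho 0.867 over 12 hearts), and the 3 hearts with most *CSRP3* are Sal-exposed hearts 5, 2 and 3.

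The 3 named genes most like each member were taken by Spearman's rho of log2(CPM + 1) over the same 12 libraries, as a description of points that share library and depth. For *NPPA* these were *SMYD2* (0.937), *MYL10* (0.930) and *PSMA7* (0.930), and for *CSRP3* they were *PAQR7* (0.958), *MYL10* (0.944) and *DCLK2* (0.937), so *MYL10* was on both lists. *CORIN* was followed by *ALPK2* (0.972), *TARBP1* (0.951) and *RMDN2* (0.937). *ANKRD1* had *CBX8* (0.916), *SHROOM2* (0.902) and *PAK1* (0.888), and *XIRP1* had *YPEL2* (0.930), *KIF26A* (0.923) and *UNC5B* (0.909). *RCAN1* had *A4GALT* (0.937), *DOK7* (0.930) and *RBM46* (0.923), and the sparse *NPR3* had *RUFY3* (0.930), *RAD54L2* (0.930) and *F5* (0.923).

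Liver served as the background tissue. *RCAN1*, which passed the filter on low counts in the control livers alone, was higher in control heart than in control liver. Among all 14121 genes, 35.9% were called higher in heart. The other members entered this comparison only through their heart counts, so that their difference is a description. Among them, *NPPA* had 2 to 564 counts and *XIRP1* 0 to 59 counts per control liver. Log2FC was 9.52 for *NPPA*, 9.38 for *CSRP3*, 8.11 for *CORIN*, 7.97 for *ANKRD1*, 7.59 for *XIRP1*, 3.07 for *RCAN1* and 2.27 for *NPR3*. For *RCAN1*, edgeR p-adj was 3.51e-08. The intervals of the first 5 overlapped, so their order is not resolved, while *RCAN1* and *NPR3* lay below those 5 and overlapped each other. For *NPR3*, log2FC was 2.05 without control heart 5 and 2.06 without control liver 3. Without control liver 5 the value was 10.94 for *NPPA*, 10.74 for *CSRP3* and 9.55 for *CORIN*, and without control liver 6 it was 9.48 for *ANKRD1*. *RCAN1* was the member with a steady liver level, at 5.08 to 10.9 CPM in control and 7.10 to 11.8 CPM in Sal-exposed livers, 9.0 to 21% of the mean of control hearts.

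The other heart members were scarce in liver and uneven between birds. *NPPA* was at 0.0522 to 0.784 CPM in 4 control livers but at 8.99 CPM in control liver 4 and 21.4 CPM in control liver 5, against 0.245 to 3.36 CPM in the Sal-exposed livers. These 2 livers held *NPPA* at 0.241% and 0.573% of the control heart mean, *CSRP3* at 0.265% and 0.614%, *ACTC1* (cardiac actin) at 0.195% and 0.608% and *TNNT2* (cardiac troponin T) at 0.190% and 0.643%. Of the 12 cardiomyocyte markers, 9 lay between 0.151 and 0.303% in liver 4 and between 0.528 and 0.909% in liver 5, with *TNNC1*, *TNNI1* and *MYH7* outside. *CORIN* reached 0.726% and 1.62% there, from 7 and 18 counts. *ANKRD1* departed from this ratio: its highest liver was control liver 6, at 1.41 CPM or 1.89% of heart, where *NPPA* was at 0.00407%. *CORIN*, *ANKRD1* and *CSRP3* had no count in some livers of both groups. This allows up to 0.114 CPM for *CORIN* and 0.105 CPM for *ANKRD1* and *CSRP3* (3 counts in the library with the smallest size after TMM scaling, counting error only).

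**Figure D4:**
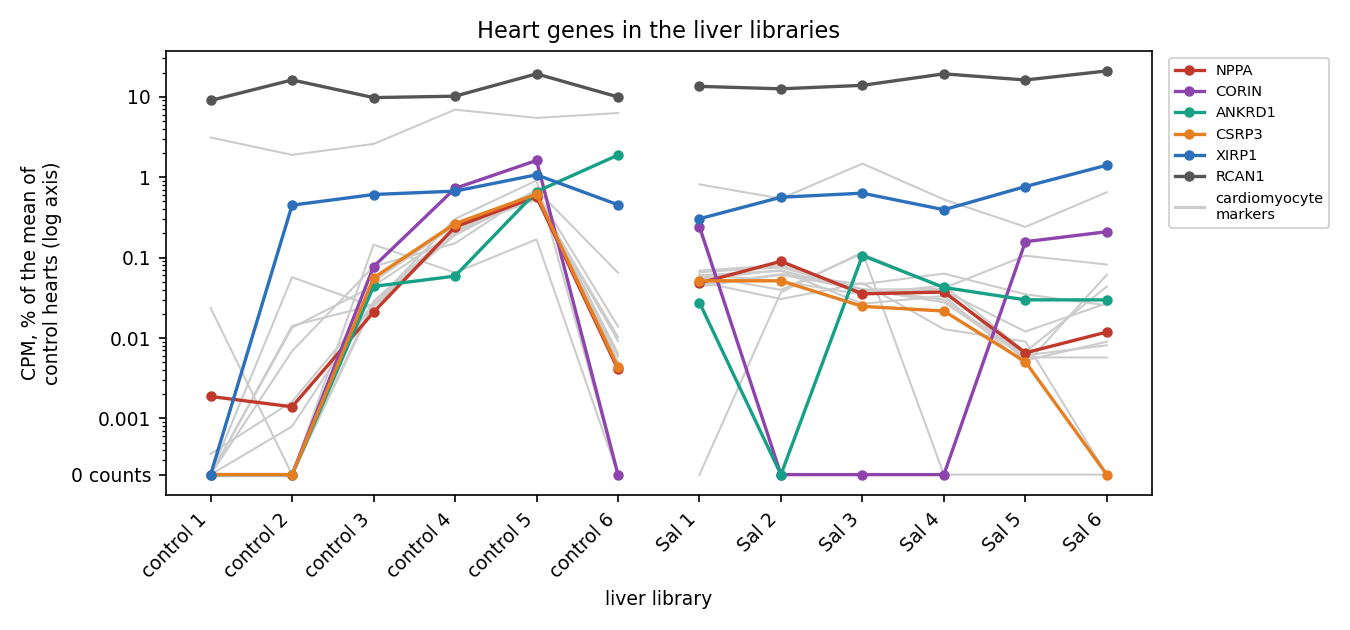
CPM in each of 12 liver libraries as a percentage of the mean of 6 control hearts (log axis, lowest tick for 0 counts), for 6 members in colour and 11 cardiomyocyte markers in grey, with *NPR3* and *MYH7* left out for their low heart level. *NPPA* and *CSRP3* follow most grey lines and peak in control liver 5 (0.573% and 0.614%), whereas *RCAN1* stays at 9.0 to 21% in all 12.

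Between Sal-exposed and control livers, 0 of the 3 members tested were called, where edgeR called 15.4% of 13587 genes and 7.01% with an absolute log2FC of at least 1. At an unadjusted p below 0.05 the count was also 0 of 3, beside 31.5% of all genes, and DESeq2 without surrogate variables called 0 of 3 (22.1% of all genes). *NPPA* had a log2FC of −1.89 (SE 1.17, edgeR p-adj = 0.290), which turned to 2.42 (p-adj = 0.151) without control livers 4 and 5. These were the control livers with most *NPPA*, so leaving them out raises this value by itself. *XIRP1* had 0.32 (SE 0.70, p-adj = 0.796) and *RCAN1* 0.37 (SE 0.24, p-adj = 0.319), the last with all 6 Sal-exposed livers above the control median. The other 4 members did not pass the filter on low counts in liver. The *CLCN6* row, whose span holds *NPPA*, was at 7.71 to 10.7 CPM in Sal-exposed and 4.35 to 8.53 CPM in control livers (exact permutation p = 0.00866). It was above *NPPA* in all livers but control livers 4 and 5. The row without a symbol at *XIRP1* was at 0.226 to 2.28 CPM against 0 to 0.877 CPM (exact permutation p = 0.0563). The part of these overlapping rows in the liver values of *NPPA* and *XIRP1* was not tested. Summed cardiomyocyte markers were 8.72 to 46.0 CPM in Sal-exposed and 48.1 to 296 CPM in control livers (exact permutation p = 0.00216), most of it from reads of *TNNC1*. In the same livers the hepatocyte markers summed to 109082 to 201183 CPM against 127762 to 299568 CPM (exact permutation p = 0.0216), the erythrocyte markers to 93.1 to 266 CPM against 199 to 755 CPM (0.0216) and the fibroblast markers to 254 to 678 CPM against 518 to 944 CPM (0.0325). The hepatocyte log2 ratio was −0.71 and lay between −0.86 and −0.60 leaving out 1 library, but shrank to −0.08 under another scaling. Ventricular markers (5 of 7 in the table) summed to 39.1 to 56.3 CPM against 28.8 to 51.2 CPM (exact permutation p = 0.0433). *LBH* made up most of this, with means of 45.7 and 32.4 CPM. Of 3 ventricular markers tested, 1 had a log2FC above 0 (49.3% of all genes). Skeletal muscle markers (3 of 8) summed to 0.158 to 0.621 CPM against 0 to 1.48 CPM (0.0455), close to the limit of detection. Exact p was 0.864 for atrial, 0.390 for endothelial and endocardial, 0.0866 for smooth muscle, 0.0519 for epicardial and 0.0844 for leukocyte and thrombocyte markers.

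The response of a member in heart was set against its response in liver by an interaction term in 1 model of all 24 libraries. Neither this model nor the comparison of control tissues had a term for the bird, so hearts and livers were treated as independent. EdgeR called 16.2% of 14632 genes and 0 of 7 members, and DESeq2 called 1 of 7 beside 21.4% of all genes. At an unadjusted p below 0.05, 2 members were higher (13.7% of all genes) and 1 was lower (17.3%). The 2 were *ANKRD1* and *CSRP3*, which, like *CORIN* and *NPR3*, entered this model only through their heart counts. For *RCAN1* the response in heart was below that in liver by a log2 difference of −0.80 (SE 0.30, p-adj = 0.0688), and without control livers 4 and 5 it passed, at −0.95 (p-adj = 0.0398). Leaving out 1 library at a time, it also passed without Sal-exposed heart 4 (p-adj = 0.0249), control liver 2 (0.0360) or control liver 5 (0.0233) and without Sal-exposed liver 2 (0.0461). The values of *ANKRD1* (3.35, p-adj = 0.0855) and *CSRP3* (2.88, p-adj = 0.0817) rest on liver levels near 0. That of *CSRP3* became −0.47 without control livers 4 and 5, the control livers with most *CSRP3*. Given as a description because of that entry, *ANKRD1* had p-adj = 0.0376 in DESeq2 (3.69) and 0.0465 in edgeR without control liver 2. *CSRP3* had p-adj 0.0440, 0.0320 and 0.0439 in edgeR without control liver 1, 2 and 6. Leaving out 1 other liver lowered the log2 difference, for *ANKRD1* to 1.84 without control liver 6 (p-adj = 0.392). Without control liver 5 it fell to 1.53 for *CSRP3* (p-adj = 0.332) and from 2.36 to 0.94 for *NPPA* (p-adj = 0.614).

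The genes around the members were described by 5 lists. In the natriuretic peptide and cGMP list 0 of 25 genes passed in the heart in edgeR (0.185% of all genes). At an unadjusted p below 0.05 there were 2 (17.2% of all genes), and DESeq2 without surrogate variables called 0 (4.59% of all genes). The lowest p belonged to *MME*, which encodes neprilysin, a protease that degrades natriuretic peptides (log2FC 1.07, SE 0.35, p-adj = 0.154, 0.419 to 0.934 CPM against 0.161 to 0.502 CPM). The median of the list was 0.11, beside −0.02 over all genes.

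In the calcineurin, NFAT and MEF2 list, 1 of 24 genes rose in the heart, where 0.185% of all genes were called. This was *NFATC1*, a transcription factor that calcineurin activates and a known endocardial gene. Its level was 26.6 to 66.0 CPM in Sal-exposed and 17.6 to 22.1 CPM in control hearts, with 6 of 6 Sal-exposed hearts above every control. Over all genes, 2.57% separated the groups without overlap, in either direction. The means were 40.4 ± 14.4 and 19.6 ± 1.84 CPM (SD, n = 6), and log2FC was 1.05 (SE 0.19, edgeR p-adj = 0.0487). The call sat at the threshold: without Sal-exposed hearts 1 and 4 the log2FC was 0.82 (p-adj = 0.0550), and p-adj ran from 0.0308 without Sal-exposed heart 3 to 0.143 without control heart 1. It was lost without any 1 of the 6 control hearts or of Sal-exposed hearts 1, 2 and 6. DESeq2 kept it (p-adj = 9.42e-05, and 1.20e-05 with surrogate variables), as did edgeR with surrogate variables (0.0197), while it was lost in edgeR with upper-quartile scaling (0.0578), the mitochondrial share as a covariate (0.120), a replicate block (0.233) or all 24 libraries in 1 fit (0.301). The endothelial and endocardial markers, *NFATC1* among them, summed to 607 to 950 CPM in Sal-exposed and 767 to 1065 CPM in control hearts.

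Of the stretch and Z-disc list, 0 of 31 genes passed in the heart in edgeR, 7 had an unadjusted p below 0.05, all higher in Sal-exposed hearts (10.1% of all genes), and DESeq2 called 5 (4.59% of all genes). *MLIP*, which encodes a lamin-interacting protein of muscle, had the lowest p (log2FC 0.66, SE 0.14, edgeR p-adj = 0.0723). It passed in DESeq2 (p-adj = 0.00101) and with surrogate variables in edgeR (0.0191) and DESeq2 (1.12e-05). In edgeR it also passed without Sal-exposed heart 3 (0.0385), and p-adj ran up to 0.697 over its alternatives. It was at 209 to 348 CPM against 143 to 193 CPM, with 6 of 6 Sal-exposed hearts above all controls, beside 2.57% of all genes without overlap in either direction. Of the immediate early and YAP or TEAD list, 0 of 26 passed in edgeR and in DESeq2, with 5 at an unadjusted p below 0.05 (17.2% of all genes). *DUSP5*, a nuclear ERK phosphatase, had log2FC −0.83 (SE 0.27, edgeR p-adj = 0.150). It passed only with surrogate variables, in edgeR (p-adj = 0.0256) and DESeq2 (0.000509). Among the cardiac transcription factors that bind the *NPPA* and *NPPB* promoters, 0 of 16 passed in edgeR and 2 in DESeq2 (4.59% of all genes). In this list 7 genes had an unadjusted p below 0.05, all higher in Sal-exposed hearts (10.1% of all genes). A log2FC above 0 was found for 13 of 16 (47.8% of all genes), with a median of 0.25. *GATA4*, the zinc finger factor of *NPPA* and *NPPB* transcription, was at 166 to 273 CPM against 138 to 195 CPM, above all controls in 5 of 6 Sal-exposed hearts (log2FC 0.42, SE 0.12, edgeR p-adj = 0.125). It passed in DESeq2 (p-adj = 0.0257) and with surrogate variables in edgeR (0.0250) and DESeq2 (0.000184). With surrogate variables, edgeR called 993 of 13526 genes in heart and DESeq2 1967 of 14396. Cardiomyocyte markers summed higher in the same hearts, as given above, and their part in these values was not tested.

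**Figure D5:**
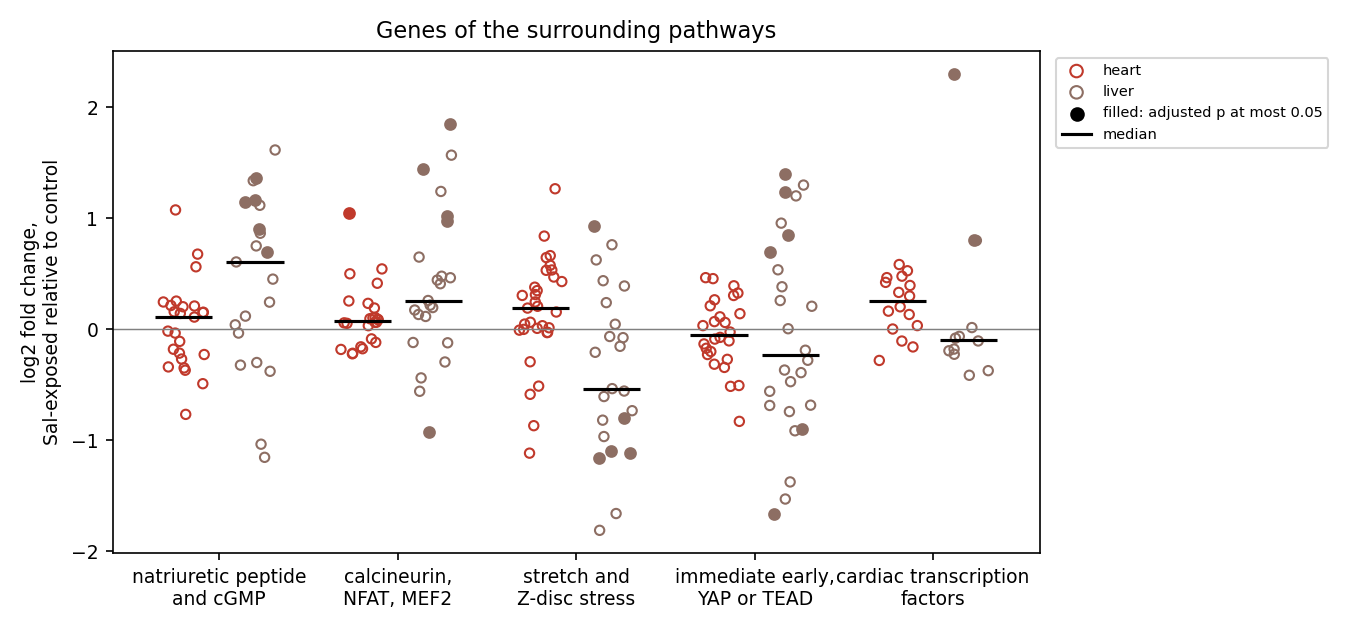
Log2FC of Sal-exposed relative to control tissue for each tested gene of the 5 lists, in heart and in liver, with filled points for p-adj of at most 0.05 in edgeR and a black bar for the median. In the heart only *NFATC1* is filled, and in the liver the stretch and Z-disc list has 4 genes called lower and 1 higher.

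In the liver, 7.57% of all genes tested rose and 7.84% fell. The lower sums of hepatocyte, erythrocyte and fibroblast markers in Sal-exposed livers, taken after TMM scaling, stood beside these calls, and their part was not tested. The natriuretic peptide and cGMP list had 5 of 21 genes higher and 0 lower. They were *ABCC5*, an exporter of cyclic nucleotides (log2FC 1.16, p-adj = 0.00518), *IDE*, a protease that can cleave atrial natriuretic peptide (1.36, p-adj = 0.00656), the phosphodiesterase *PDE3B* (0.70), the potassium channel *KCNMA1* (1.14) and the myosin phosphatase subunit *PPP1R12A* (0.90). The calcineurin list had 4 of 23 higher, *NFATC3* (0.97), *CAMK2D* (1.02), *NFAT5* (1.85) and *MEF2C* (1.44), and *CIB1* lower (−0.92). *PDLIM5* rose (0.93) in the stretch and Z-disc list, where *PDLIM7* (−1.10), *FHL1* (−1.16), *CSRP1* (−1.11) and the intermediate filament gene *DES* (−0.80) fell among 23. In the immediate early and YAP or TEAD list 4 of 26 rose, among them *VGLL4* (1.39), *YAP1* (0.69) and *FOSL2* (1.23), and 2 fell, *GADD45B* (−1.67) and *TEAD4* (−0.90). *REST* (2.30), a repressor of *NPPA* in mammals, and *GATA4* (0.80) rose among 12 transcription factors. Without control livers 4 and 5 the counts, in the order of the lists, were 2, 0, 0, 1 and 0 higher and 0, 0, 3, 1 and 0 lower. Leaving out 1 liver at a time, 12 of the 22 liver genes named here passed in all 12 fits. *PDE3B* and *CAMK2D* missed the threshold only without Sal-exposed liver 6 (p-adj = 0.0521 for each), and the other 8 missed it in 4 to 10 of the 12 fits.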

How the data were processed

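RNA-seq of chicken heart and liver was analysed here from a deposited table of raw, unnormalized counts for Ensembl genes. Per the study's methods, the authors trimmed reads with fastp, aligned them with STAR to GRCg7b and quantified genes with RSEM (their versions are not given in the sources used here), from libraries made with a dual-mode mRNA kit. The table has 36 columns, of which 12 match no sample here and were not used. The authors' deposited result tables hold log2 fold changes, standard errors, Wald statistics, p and adjusted p-values, which were not used beyond gene names and positions.

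In R 4.3.3, edgeR 4.0.16 compared groups of 6 libraries by quasi-likelihood F tests with TMM scaling, filterByExpr (minimum count 10, total 15) and Benjamini-Hochberg adjustment over all genes, and intervals are 95%. Single values were tested by exact two-sided permutation of birds, and pairs of members by 100000 permutations (SciPy 1.17.1). DESeq2 1.42.0, sva 3.50.0 (3 surrogate variables in heart, 4 in liver), other scalings, no filter, mitochondrial genes left out, all 24 libraries in 1 fit, a replicate block and each library left out were alternatives. Leaving out Sal-exposed hearts 1 and 4 or control livers 4 and 5, leaving *APOA1* out of the hepatocyte sum, and the mitochondrial share as a covariate, were added after the data were seen. The count tests were run on simulated data with the same dispersion for all genes and changes larger than those of the members in heart. Those runs do not show how changes or spreads like those of the members are detected.

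Members and lists were chosen with earlier results of these data known. Named are all members, from each list the genes past p-adj 0.05 (up to 5 per tissue by p) or else the gene with the lowest p, and the 3 genes most like each member. No 2 libraries of a group agreed within sampling noise (chi-square over its degrees of freedom was at least 12.9 in the 60 pairs). Gene positions are those of the authors' files, and RefSeq was used for names and neighbours. Levels per transcript length were not computed, and sequences are not shown, for want of a genome and transcripts here.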

Additional observations from a re-analysis of the deposited data

Results flagged for a closer look

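Of 72 groups of 6 values examined for a library far from the others, 6 had one, and chance flags about 1 in 20 groups. *ANKRD1* was at 1.41 CPM in control liver 6, where the next control liver had 0.493 CPM. *XIRP1* was at 294 CPM in control heart 2, with the next control heart at 211 CPM. *NPR3* was at 0.296 CPM (15 counts) in Sal-exposed liver 3, with the next at 0.123 CPM. Among the marker sums, Sal-exposed liver 4 was high for atrial markers (94.6 CPM, next 64.7) and for hepatocyte markers (201183 CPM, next 132010.0), and Sal-exposed heart 2 was low for endothelial and endocardial markers (607 CPM, next 828). No cause of these values was tested.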

How the results depend on the processing

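The number of genes called in heart (25) was 15 with an absolute log2FC of at least 1, 41 with all 24 libraries in 1 fit, 673 in DESeq2, 993 and 1967 with surrogate variables in edgeR and DESeq2, 2 with the mitochondrial share as a covariate, and 0 to 270 leaving out 1 library, with 270 without Sal-exposed heart 3 and 0 without any 1 control heart. In liver (2093) it was 952 with the fold criterion, 3654 with all 24 libraries, 870 and 0 with surrogate variables in DESeq2 and edgeR, 446 without control livers 4 and 5, and 896 to 2833 leaving out 1 library, the lowest without Sal-exposed liver 6. The interaction count (2373) was 1548 with the fold criterion. The cause of these shifts was not tested. With the replicate block the counts were 0 in heart, 1009 in liver, 2281 for the interaction and 9252 between control tissues. Same-numbered libraries correlated above 0.1 in 0 of 6 pairs of hearts, 1 of 6 pairs of livers, 2 of 6 pairs of control heart and liver and 5 of 6 pairs of Sal-exposed heart and liver, where 5 of 6 were closest to their own number. The labels do not say which libraries share a bird, and the cause of these correlations was not tested. The numbers were used only in the replicate block, which ties same-numbered libraries. Between Sal-exposed and control groups these are different birds, so within a tissue the block ties libraries that share no bird. Between heart and liver, whether same-numbered libraries share a bird is unverified. All results with the replicate block are therefore a description.

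The count of members called in heart became 1 with surrogate variables in DESeq2 (*RCAN1*). In liver it became 1 with surrogate variables in DESeq2 (*NPPA*) and 1 with all 24 libraries. The latter was not *NPPA*, *XIRP1* or *RCAN1*. It was thus a member that failed the filter on low counts in the liver fit and entered with the heart libraries, so its call is a description. For the interaction the count was 1 in DESeq2, 1 with the replicate block (*RCAN1*, −0.83, p-adj = 0.0473), 1 without control livers 4 and 5, and 0 to 3 leaving out 1 library. Members past p-adj 0.05 between control tissues were 6 to 7 leaving out 1 library and 6 in DESeq2, which gave *CSRP3* no adjusted p. *CORIN*, *NPR3*, *ANKRD1* and *CSRP3* entered these counts, and those of the interaction, only through their heart counts. Between control tissues, the same held for *NPPA* and *XIRP1*.

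Signs turned for *ANKRD1* in heart with the replicate block (−0.026; −0.21 to 0.51 leaving out 1 library) and for *NPPA* in liver with the block (0.75), with surrogate variables in edgeR (3.14) and DESeq2 (3.56, p-adj = 0.0118) and without control livers 4 and 5 (2.42). *XIRP1* in liver ran from −0.023 to 0.63 and the interaction of *CORIN* from −0.0097 to 1.86 leaving out 1 library, and without the 2 livers the interaction was −1.95 for *NPPA*, −2.39 for *CORIN*, −0.47 for *NPR3* and −0.47 for *CSRP3*. Each of these genes was highest in those livers among the controls, so leaving them out lowers the interaction by itself. *CLCN6* in heart was 0.0079 and 0.020 with surrogate variables in edgeR and DESeq2 and −0.082 to 0.027 leaving out 1 library. Over all counts without TMM, log2 ratios in heart turned for *NPR3* (−0.18), *ANKRD1* (−0.40; −0.21 to 0.50 leaving out 1 library), *CSRP3* (−0.089) and the cardiomyocyte (−0.12), atrial (−0.46), ventricular (−0.17), smooth muscle (−0.52; −0.080 over nuclear counts; −0.052 to 0.11 leaving out 1 library) and epicardial sums (−0.65; −0.27 to 0.18), and the erythrocyte sum ran from −0.54 to 0.065. The log2 ratio of the hepatocyte sum in heart turned from −0.25 to 2.08 with *APOA1* left out. Levels of *NPR3* in heart and of most members in liver rest on low counts, and *NPR3* in heart also spread widely between birds.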
